A study of Mus musculus with 15 samples.

Results

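The 9 genes described here, Mrc1, Stab1, Lyve1, Clec10a, Pf4, F13a1, Folr2, Ms4a7 and Cbr2, are widely used to recognise border-associated macrophages, the macrophages of the meninges, the perivascular spaces and the choroid plexus. They were taken by symbol from a list drawn up for the purpose, matched to mouse Ensembl identifiers, and all 9 stand among the 33223 genes of the count tables. The study sequenced RNA from mouse cortex 1 day after a moderate controlled cortical impact, an impactor injury to the right parietal cortex. All mice carried floxed EphA4 (EphA4f/f). The KO mice also carried VeCadCreERT2, a tamoxifen-inducible Cre under the VE-cadherin promoter that is active in endothelial cells, and the WT mice did not. Dissociated ipsilateral cortex was passed over CD45 and CD31 microbeads, and libraries came from the CD45 cells (4 KO, 3 WT) and from the flow-through, which the labels describe as the remaining cortical cells (3 KO, 4 WT). Every group was injured, so no comparison with uninjured cortex could be made, and the labels used here state no ages. The labels do not name animals, and the replicate numbers used below are names only.

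Many border-associated macrophages, though not all, settle in the brain's borders before birth. Unlike microglia, border-associated macrophages sit outside the parenchyma, where they sample blood and cerebrospinal fluid. Their gene set is built around uptake: mannose and scavenger receptors, a folate receptor and a C-type lectin, with secreted or cytoplasmic products that bind chemokine receptors or cross-link fibrin. Several of these genes are not exclusive to them. Monocytes and monocyte-derived macrophages that enter injured brain transcribe F13a1, Mrc1 and Ms4a7, platelets carry Pf4, dendritic cells use Clec10a, and lymphatic endothelium makes Lyve1.

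Promoter sequence was matched for 7 of the 9 genes in RefSeq's mouse table (GRCm38), which gave none for Lyve1 and Clec10a. Within the 250 bases before the transcription start, 5 of these 7 held GAGGAA or its reverse complement TTCCTC, the core letters bound by PU.1, the lineage factor of macrophages, against 23.3% of 32817 promoters of the same length. Mrc1 held 3 matches, and Stab1, F13a1, Pf4 and Cbr2 held 1 each, while Folr2 and Ms4a7 held none. The letters AGATAA, known from GATA factor sites, were on either strand of 0 of the 7, against 9.99% of all promoters. The letters TGCTGA, known from MAF factor sites, were on either strand of 2, Folr2 and Stab1, against 16.1%. None of these motifs contains another. A match is a description of letters and not a bound site. The 4 genes with the highest levels per length are shown, 5′ to 3′ on the gene's strand, with each GAGGAA or TTCCTC in capitals.
Mrc1, chr2:14229164-14229413, plus strand: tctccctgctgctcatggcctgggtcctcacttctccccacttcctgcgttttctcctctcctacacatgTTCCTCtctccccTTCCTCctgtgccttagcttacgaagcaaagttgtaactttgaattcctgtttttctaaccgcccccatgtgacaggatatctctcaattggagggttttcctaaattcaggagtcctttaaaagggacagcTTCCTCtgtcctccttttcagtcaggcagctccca
Stab1, chr14:31168642-31168891, minus strand: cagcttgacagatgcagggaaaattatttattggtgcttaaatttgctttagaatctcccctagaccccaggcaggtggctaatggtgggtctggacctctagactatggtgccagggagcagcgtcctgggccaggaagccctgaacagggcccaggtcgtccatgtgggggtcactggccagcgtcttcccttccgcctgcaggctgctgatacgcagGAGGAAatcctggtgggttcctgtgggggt
F13a1, chr13:37050245-37050494, minus strand: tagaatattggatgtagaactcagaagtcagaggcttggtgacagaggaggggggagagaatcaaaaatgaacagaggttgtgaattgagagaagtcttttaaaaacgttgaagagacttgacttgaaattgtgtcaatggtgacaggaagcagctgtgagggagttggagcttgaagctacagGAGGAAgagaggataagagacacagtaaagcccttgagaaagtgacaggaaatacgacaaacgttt
Pf4, chr5:90772185-90772434, plus strand: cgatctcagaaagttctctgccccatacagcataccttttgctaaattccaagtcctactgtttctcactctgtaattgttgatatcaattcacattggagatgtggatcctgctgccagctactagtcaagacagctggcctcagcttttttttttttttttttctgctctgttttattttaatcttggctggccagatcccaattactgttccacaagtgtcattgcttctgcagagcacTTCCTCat

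Totals were 11574414 to 31337948 counts per library. Ptprc, which encodes CD45, averaged 908 CPM (reads of the gene relative to the library's scaled total) in the 7 CD45 libraries and 0.957 CPM in the 7 flow-through libraries, a log2 fold change of 10.45 (SE 0.13, adjusted p = 3.21e-18, edgeR quasi-likelihood test with Benjamini-Hochberg adjustment). The targeted gene, Epha4, averaged 2.52 ± 0.95 CPM in KO, against 2.83 ± 0.13 CPM in WT CD45 libraries, and 39.3 ± 2.8 CPM in KO, against 41.2 ± 2.9 CPM in WT flow-through libraries (SD, n = 4, 3, 3 and 4). Neither fraction is an endothelial isolate, so these levels do not test the deletion. One further library has a flow-through WT label (replicate 5) but a column in the CD45 count table. It carried the 9 genes at a summed 2548 CPM and was left out of every result.

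All 9 genes were higher in CD45 cells than in the flow-through, by log2 fold changes of 8.87 to 11.58 for Mrc1, Stab1, Clec10a, Pf4, F13a1 and Ms4a7 and of 1.42 to 4.60 for Folr2, Lyve1 and Cbr2. The count of 9 of 9 called higher (adjusted p under 0.05) is read against 41.4% of all 18098 genes tested, and the 8 whose CD45 and flow-through libraries did not overlap against 22.6%. Clec10a, Pf4, F13a1 and Ms4a7 did not pass the filter on low counts in the flow-through alone. They entered this fit through their CD45 counts, so a call in the higher direction was nearly fixed beforehand and is no test for them. The median log2 fold change, CD45 over flow-through, was 9.58 for the 9 genes and -0.054 for all genes. Levels below are CPM scaled by TMM (trimmed mean of M values) within a fraction, and the log2 fold changes between fractions come from 1 fit over both. In RNA from bulk fractions, fewer cells of a type and less RNA per cell cannot be told apart.

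The endocytic receptors Mrc1 and Stab1 were abundant. Mrc1 (Ensembl ENSMUSG00000026712, chromosome 2, 14229392 to 14332057, GRCm38), the mannose receptor CD206, had 449, 347, 364 and 425 CPM in KO CD45 libraries, against 409, 534 and 289 CPM in WT CD45 libraries. In the flow-through it had 0.602, 0.954 and 0.696 CPM in KO libraries, against 0.239, 0.396, 0.340 and 0.390 CPM in WT libraries. KO and WT overlapped in the CD45 cells, and every KO flow-through library lay above every WT one. CD45 cells exceeded the flow-through by a log2 fold change of 10.15 (SE 0.19, adjusted p = 1.30e-16). Stab1 (ENSMUSG00000042286, chromosome 14, 31139013 to 31168641), a scavenger receptor for modified lipoproteins and cell debris, was the most counted of the 9, with 1177, 866, 961 and 1118 CPM in KO CD45 libraries, against 960, 1361 and 1073 CPM in WT CD45 libraries. Its flow-through level was 2.31, 2.01 and 1.72 CPM in KO libraries, against 1.38, 2.64, 2.43 and 1.76 CPM in WT libraries. The genotypes overlapped in both fractions, and the log2 fold change of CD45 cells over flow-through was 9.58 (SE 0.18, adjusted p = 6.03e-17). Stab2, its paralog and a receptor of sinusoidal endothelium, stayed at or below 0.437 CPM in all 14 libraries.

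Lyve1 and Clec10a were sparser. Lyve1 (ENSMUSG00000030787, chromosome 7, 110850607 to 110863239), a hyaluronan receptor, had 33.6, 8.05, 22.8 and 47.3 CPM in KO CD45 libraries, against 11.3, 35.2 and 22.5 CPM in WT CD45 libraries. It also had 4.95, 7.10 and 3.73 CPM in KO flow-through libraries, against 5.06, 3.74, 13.8 and 7.22 CPM in WT ones. Lyve1 was the only one of the 9 whose fractions overlapped: WT flow-through replicate 3 lay above KO CD45 replicate 2 and WT CD45 replicate 1. CD45 cells were higher by a log2 fold change of 2.56 (SE 0.42, adjusted p = 5.76e-05). Of the 6 lymphatic endothelial genes listed, 5 were in the table, and their summed level was 258 to 325 CPM in KO, against 157 to 233 CPM in WT CD45 libraries, and 237 to 275 CPM in KO, against 275 to 308 CPM in WT flow-through libraries. In CD45 libraries most of it was Pdpn alone, with 249 to 317 CPM in KO, against 150 to 229 CPM in WT, and Prox1 had at most 4.35 CPM. In the flow-through most of it was Prox1 and Pdpn. Reln had 11.8 to 15.1 CPM in KO, against 8.92 to 13.7 CPM in WT flow-through libraries, and Flt4, the lymphatic growth factor receptor VEGFR3, 0.742 to 1.61 CPM in KO, against 0.525 to 1.65 CPM in WT. Mmrn1, the lowest of the 5, had at most 0.0486 CPM in any flow-through library. The part of lymphatic cells in the Lyve1 level was not tested. Clec10a (ENSMUSG00000000318, chromosome 11, 70156197 to 70170834), a C-type lectin for galactose-type sugars, had 15.3, 14.5, 30.2 and 25.4 CPM in KO CD45 libraries, against 25.8, 23.6 and 38.8 CPM in WT CD45 libraries. The flow-through held 11 Clec10a counts in all 7 libraries. CD45 cells were higher by a log2 fold change of 8.87 (SE 0.37), a description only, since Clec10a entered that fit through its CD45 counts. Clec10a lies beside the near-identical Mgl2, and how the counting split reads between them is not known, so both values are uncertain.

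Pf4 and F13a1, whose products act on clotting and leukocyte traffic, were high in CD45 cells and almost absent from the flow-through. Pf4 (ENSMUSG00000029373, chromosome 5, 90772435 to 90773383), the chemokine CXCL4, had 245, 215, 160 and 238 CPM in KO CD45 libraries, against 239, 220 and 114 CPM in WT CD45 libraries. WT replicate 3 was the lowest of the 7, and the flow-through held 20 Pf4 counts in all. The log2 fold change of CD45 cells over flow-through was 11.10 (SE 0.31), a description only, since Pf4 entered that fit through its CD45 counts. Pf4 is also a platelet gene. The platelet list summed to 72.9 to 80.9 CPM in KO, against 40.4 to 75.3 CPM in WT CD45 libraries, and most of that was Ppbp, with 62.3 to 72.0 CPM in KO, against 32.2 to 68.4 CPM in WT. Itga2b had 3.21 to 5.54 CPM in KO, against 2.94 to 4.44 CPM in WT CD45 libraries. Tubb1 had 1.88 to 2.91 CPM in KO, against 1.45 to 2.61 CPM in WT, and Treml1 1.14 to 1.70 CPM in KO, against 0.990 to 1.53 CPM in WT. Of its 10 genes, 4 stayed under 1 CPM in every CD45 library: Gp5, Gp6, Gp1ba and Gp1bb, the last with 0 counts in 6 of the 7. The Gp1bb value is uncertain, because 91.1% of its exon bases overlap Sept5 on the same strand. Pf4 reads numbered 222 to 383 per 100 Ppbp reads in KO and 349 to 381 in WT CD45 libraries. The part of platelets in the Pf4 level was not tested. F13a1 (ENSMUSG00000039109, chromosome 13, 36867178 to 37050244), the A subunit of coagulation factor XIII, which cross-links fibrin, had 587, 598, 527 and 771 CPM in KO CD45 libraries, against 613, 787 and 361 CPM in WT CD45 libraries. WT replicate 3 was again the lowest, and the flow-through held 50 F13a1 counts. The log2 fold change was 11.40 (SE 0.28), likewise a description only. F13b, which encodes the carrier subunit made in liver, reached at most 0.210 CPM in any CD45 library.

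Folr2 and Cbr2 were counted in every flow-through library, and Ms4a7 was almost absent there. Folr2 (ENSMUSG00000032725, chromosome 7, 101839988 to 101857194), folate receptor beta, had 16.9, 11.5, 13.1 and 18.3 CPM in KO CD45 libraries, against 12.02, 16.7 and 11.8 CPM in WT CD45 libraries. In the flow-through it had 6.57, 6.95 and 6.74 CPM in KO libraries, against 8.54, 10.5, 8.16 and 7.65 CPM in WT libraries. Its log2 fold change of CD45 cells over flow-through, 1.42 (SE 0.13, adjusted p = 3.17e-08), was the smallest of the 9. The Folr2 value is uncertain, because 63.1% of its exon bases overlap Gm10602, an antisense gene, and no source used here gives the strand setting of the counting. Gm10602 itself was lower in CD45 cells, with a log2 fold change of -1.07 (SE 0.23, adjusted p = 3.59e-04). Ms4a7 (ENSMUSG00000024672, chromosome 19, 11321039 to 11336146), a membrane-spanning protein that in mouse brain separates border-associated and recruited macrophages from microglia, had 59.8, 52.9, 29.2 and 27.4 CPM in KO CD45 libraries, against 51.9, 52.6 and 14.97 CPM in WT CD45 libraries. Only 2 Ms4a7 counts fell in the whole flow-through, against 6871 in the CD45 libraries, a ratio per library total of 3417 (95% interval 946 to 28225, counting error only). Cbr2 (ENSMUSG00000025150, chromosome 11, 120729489 to 120732114), a carbonyl reductase, had 34.7, 15.4, 17.9 and 31.6 CPM in KO CD45 libraries, against 18.9, 28.6 and 18.9 CPM in WT CD45 libraries. In the flow-through it had 1.02, 1.64 and 1.13 CPM in KO libraries, against 1.43, 0.968, 1.65 and 2.15 CPM in WT libraries, and CD45 cells were higher by a log2 fold change of 4.60 (SE 0.25, adjusted p = 6.66e-11).

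**Figure D1:**
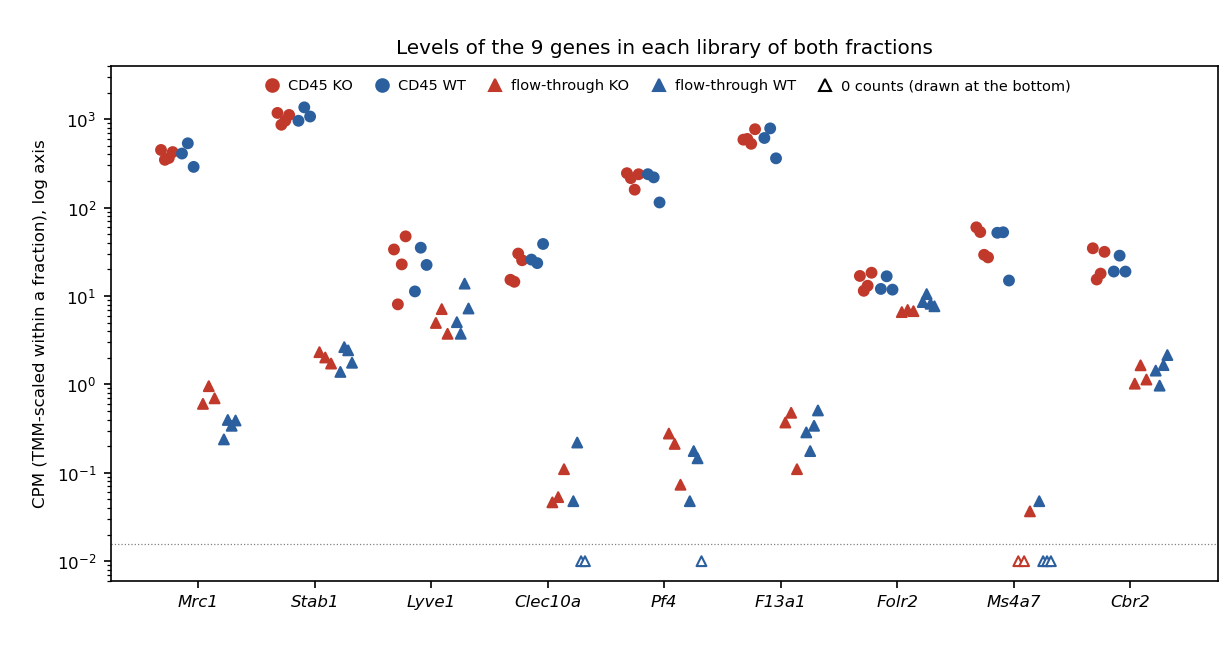
Level of each of the 9 genes in each library, in CPM scaled by TMM within a fraction, on a log axis. Circles are CD45 libraries (4 KO in red, 3 WT in blue), triangles are flow-through libraries (3 KO, 4 WT), and open triangles at the bottom mark libraries with 0 counts. The fractions lie far apart for Mrc1, Stab1, Pf4, F13a1, Clec10a and Ms4a7, less for Cbr2, and closest for Lyve1 and Folr2.

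Because longer transcripts collect more reads, genes were ordered by CPM per kilobase of exon. In CD45 libraries Pf4 came first with 284 ± 68 CPM per kilobase, then Stab1 with 104 ± 16, F13a1 with 89.98 ± 21.6, Mrc1 with 63.2 ± 12.4 and Cbr2 with 17.9 ± 5.8 (SD, n = 7). Ms4a7 (9.27), Folr2 (9.26), Lyve1 (8.84) and Clec10a (8.55) followed, and these last 4 lay within 1 SD of each other, as did Stab1 and F13a1. The flow-through had another order, led by Folr2 with 5.09 ± 0.89 CPM per kilobase, Lyve1 with 2.23 ± 1.20 and Cbr2 with 1.08 ± 0.32 (SD, n = 7), and each of the other 6 was at or below 0.198. Folr2 and Lyve1 together made up 71.3 to 73.0% of the 9-gene sum in KO and 75.6 to 81.7% in WT flow-through libraries, and 0.916 to 2.43% in KO and 0.995 to 1.76% in WT CD45 libraries. Stab1, F13a1 and Mrc1 made up 84.5 to 87.2% of that sum in KO and 84.7 to 88.6% in WT CD45 libraries.

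The 9 genes did not vary alike among the 7 CD45 libraries. Lyve1 varied most, with a coefficient of variation of 53.8% and a 5.88-fold range, followed by Ms4a7 (41.4%), Clec10a (33.96%) and Cbr2 (32.5%). Pf4 came to 24.02%, F13a1 to 23.97%, Folr2 to 20.1%, Mrc1 to 19.6% and Stab1 to 15.4%, and the median of 12016 genes with a mean of at least 2 CPM was 12.6%. Between them, 2 libraries held every minimum: KO replicate 2 was the lowest for Stab1, Lyve1, Clec10a, Folr2 and Cbr2, and WT replicate 3 for Mrc1, Pf4, F13a1 and Ms4a7. WT replicate 3 was also the highest for Clec10a. The balance between genes differed with them: Lyve1 reads per 100 Mrc1 reads ran from 2.32 in replicate 2 to 11.1 in replicate 4 among KO, and from 2.75 in replicate 1 to 7.78 in replicate 3 among WT. Clec10a reads per 100 Mrc1 reads were 3.40 to 8.30 in KO, against 4.41 to 13.4 in WT.

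Markers of other cells also stood apart in these 2 libraries. The 5 neuron genes summed to 20.3, 124, 45.7 and 47.5 CPM in KO CD45 libraries, against 14.8, 35.97 and 24.02 CPM in WT, and the 8 blood endothelial genes to 321, 475, 336 and 288 CPM in KO, against 316, 323 and 312 CPM in WT. KO replicate 2, the lowest library for Stab1, Lyve1, Clec10a, Folr2 and Cbr2, was thus the highest of the 7 in neuron and in blood endothelial genes. WT replicate 3 stood out in other lists. The 12 monocyte and infiltrating macrophage genes summed to 19334 to 22058 CPM in KO, against 16672 to 21471 CPM in WT CD45 libraries, with replicate 3 the lowest. Ccr2, the receptor that brings monocytes into tissue, had 553, 450, 536 and 279 CPM in KO CD45 libraries, against 508, 555 and 208 CPM in WT. The 5 oligodendrocyte genes summed to 382 to 919 CPM in KO, against 337 to 1474 CPM in WT, and the 10 neutrophil genes to 6047 to 10017 CPM in KO, against 8266 to 10832 CPM in WT, with WT replicate 3 the highest in both. The 12 homeostatic microglia genes summed to 3068 to 3946 CPM in KO, against 3024 to 3305 CPM in WT, again with WT replicate 3 the lowest. KO replicate 4, the highest of the 7 for Lyve1 and Folr2, had the lowest Ccr2 (279 CPM) and monocyte sum (19334 CPM) among KO libraries. Its oligodendrocyte (919 CPM) and neutrophil (10017 CPM) sums were the highest among KO libraries. Of the genes lowest in WT replicate 3, Ms4a7 was also the lowest among KO libraries in KO replicate 4 (27.4 CPM). Mrc1, Pf4 and F13a1 were not. None of the listed markers in these 6 groups was at 0 in all CD45 libraries, and their part in the levels of the 9 genes was not tested. Cd163, Mgl2, Cd209f and Ccl24, named after their values were seen, were like Lyve1 lowest in KO replicate 2 and highest in KO replicate 4. Other border-associated macrophage genes were not: Siglec1 was highest in WT replicate 2, and Colec12 and Maf in KO replicate 1. The neutrophil genes Camp and Ltf had the same lowest and highest library as Lyve1. Siglec1, Colec12, Maf, Camp and Ltf were also named here after their values were seen. Cd163, the haemoglobin scavenger receptor, had 51.6, 14.4, 35.7 and 102 CPM in KO CD45 libraries, against 29.2, 52.2 and 44.5 CPM in WT.

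**Figure D2:**
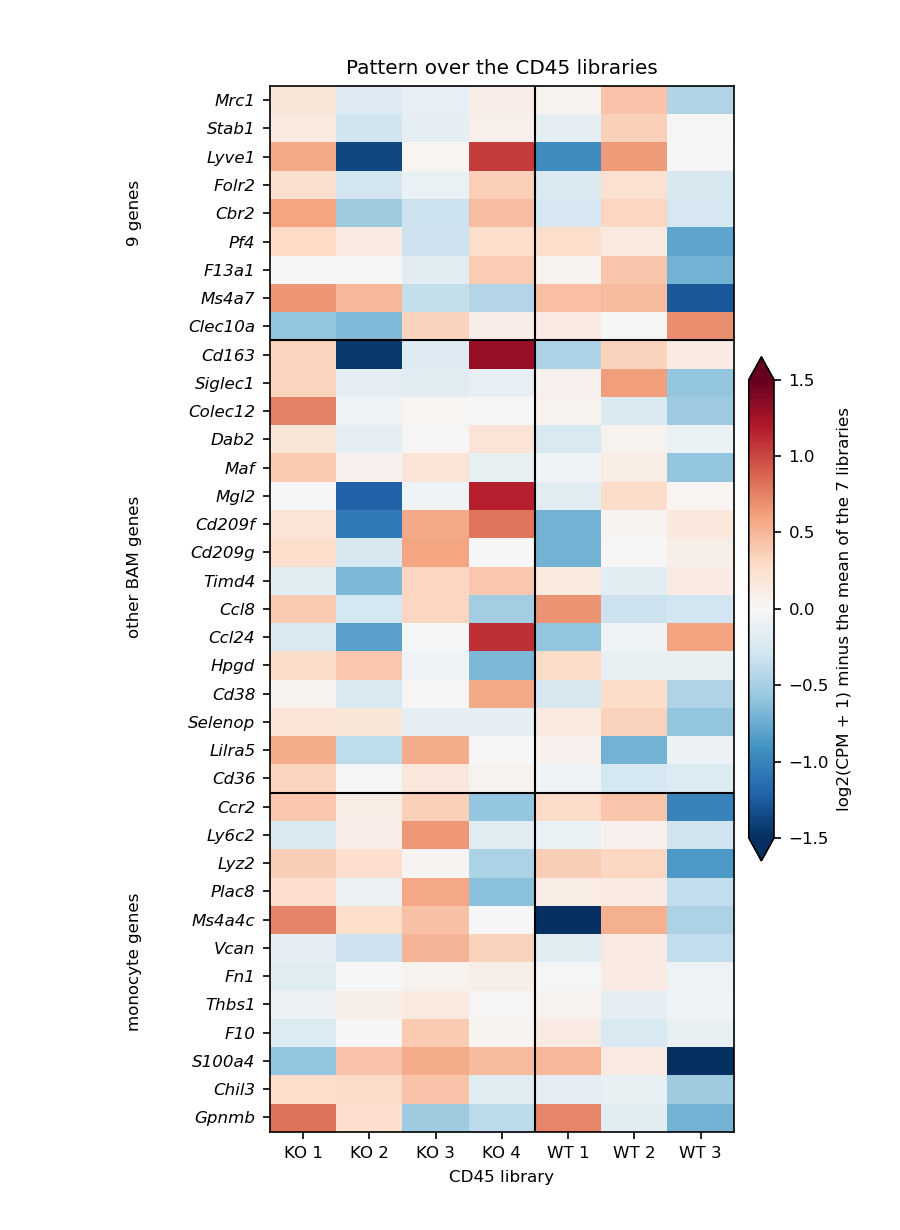
Deviation of each gene from its own mean over the 7 CD45 libraries (log2 of CPM + 1), for the 9 genes, 16 other border-associated macrophage genes and 12 monocyte genes with a mean of at least 2 CPM. Columns are the 4 KO and 3 WT libraries, red is above and blue below the mean. WT 3 is blue for Mrc1, Pf4, F13a1, Ms4a7, Ccr2 and Lyz2, and KO 2 is blue for Lyve1, Cd163, Mgl2 and Cd209f.

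Over these 7 libraries the 36 pairs of genes had a median Pearson correlation of 0.49 (log2 of CPM + 1), with 29 above 0, and none passed after adjustment over the 36 pairs (lowest adjusted p 0.124 for Pearson and 0.214 for Spearman, exact permutation tests). Folr2 and Cbr2 were closest (r = 0.95, exact permutation p = 0.00853, adjusted p = 0.124, rho = 0.86, p = 0.0238, adjusted p = 0.214), and r was 0.93 without the 2 libraries farthest from the Folr2 median. Lyve1 and Folr2 had r = 0.88 (exact permutation p = 0.00635, adjusted p = 0.124, rho = 0.93, p = 0.00675, adjusted p = 0.214) and 0.82 without 2 libraries. Pf4 and F13a1 had r = 0.86 (exact permutation p = 0.0151, adjusted p = 0.124, rho = 0.50, p = 0.267, adjusted p = 0.533), which rested on KO replicate 3 and WT replicate 3, since r was -0.20 without them. Clec10a ran against the others in 6 of its 8 pairs, most against Ms4a7 (r = -0.82, exact permutation p = 0.0212, adjusted p = 0.124, rho = -0.86, p = 0.0238, adjusted p = 0.214), with r = -0.88 without 2 libraries. The points share their libraries and the cell mix of each, so these values are a description. The 8 other genes, of 12002 compared, whose pattern was most like the mean of the 9 were Ccdc125, Coil, Sepsecs, Itsn1, Vps36, Lias, Dis3l and 4931414P19Rik, with r of 0.95 to 0.98 over 7 libraries. Under Spearman's rho 1 of these 8 stayed among the top 8, and with values centred on each genotype 2 did.

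The wider set of border-associated macrophage genes was also present in CD45 cells. Of 18 other such genes, 17 passed the filter on low counts, 15 were called higher in CD45 cells than in the flow-through and 1 lower, with a median log2 fold change of 6.89 (6.87 with the 2 genes at 0 in the flow-through set to 3 counts), against 41.4% called higher and a median of -0.054 over all genes. Only 6 of the 18 passed that filter in the flow-through alone, and the rest of those tested entered through their CD45 counts. Dab2, an endocytic adaptor, had 1156 to 1445 CPM in KO, against 1082 to 1316 CPM in WT CD45 libraries and a log2 fold change over flow-through of 5.54 (SE 0.093, adjusted p = 2.03e-17). Siglec1, the sialic acid receptor CD169, had 41.2 to 58.1 CPM in KO, against 30.3 to 71.6 CPM in WT CD45 libraries. Its log2 fold change over flow-through was 9.85 (SE 0.32), a description only, with at most 0.183 CPM in any flow-through library. Hpgd, which degrades prostaglandins, was the 1 lower gene (log2 fold change -0.59, SE 0.17, adjusted p = 0.00373), and Selenop, a selenium carrier, did not pass (0.24, SE 0.13, adjusted p = 0.0887). All 7 MHC class II genes and all 9 tested genes of the MS4A family other than Ms4a7 were called higher in CD45 cells, with median log2 fold changes of 7.41 and 10.32 (10.17 for the MS4A genes with 3 at 0 in the flow-through set to 3 counts). All 12 monocyte genes and 10 of 12 microglia genes were called higher as well, so the CD45 libraries held several myeloid types whose shares of Mrc1, F13a1 or Ms4a7 cannot be told apart. In the flow-through alone, 6 MHC class II, 1 MS4A, 6 monocyte and 8 microglia genes passed the filter on low counts. These counts of calls are therefore a description.

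No difference between KO and WT was found in the 9 genes in CD45 cells. The SE of the log2 fold change was smallest for Stab1 (0.15), Mrc1 (0.19) and Folr2 (0.19), and largest for Lyve1 (0.62) and Ms4a7 (0.49). None of the 9 passed the test, against 0.0% (0) of the 15660 genes tested, with 693 genes (4.43%) at an unadjusted p under 0.05 and 0 of the 9 among them. DESeq2 called 5 genes and none of the 9. No gene of the 9 had KO and WT libraries that did not overlap, against 5.34% of all genes. The 6 positive and 3 negative log2 fold changes had a median of 0.10, against a median of 0.020 and 54.5% positive over all genes.

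Among the receptors, Mrc1 averaged 396 ± 48 CPM in KO, against 411 ± 123 CPM in WT CD45 libraries (SD, n = 4 and 3), a log2 fold change, KO over WT, of -0.051 (SE 0.19, 95% interval -0.48 to 0.37, adjusted p = 0.992). Stab1 averaged 1031 ± 143 CPM in KO, against 1132 ± 207 CPM in WT (log2 fold change -0.13, SE 0.15, interval -0.47 to 0.20, adjusted p = 0.978). Lyve1, at 27.9 ± 16.6 CPM in KO, against 22.97 ± 11.97 CPM in WT, had an interval from -1.20 to 1.77 around a log2 fold change of 0.28 (SE 0.62, adjusted p = 0.989), which takes in a 2-fold change in either direction. Clec10a, at 21.3 ± 7.7 CPM in KO, against 29.4 ± 8.2 CPM in WT, had the largest estimate, -0.48 (SE 0.29, interval -1.15 to 0.19, unadjusted p = 0.141, adjusted p = 0.974).

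The other 5 genes had small positive estimates. Pf4 averaged 215 ± 39 CPM in KO, against 191 ± 67 CPM in WT CD45 libraries (log2 fold change 0.17, SE 0.26, interval -0.42 to 0.76, adjusted p = 0.983). F13a1 averaged 621 ± 105 CPM in KO, against 587 ± 214 CPM in WT (0.080, SE 0.24, interval -0.47 to 0.63, adjusted p = 0.991). Folr2 averaged 14.9 ± 3.2 CPM in KO, against 13.5 ± 2.8 CPM in WT (0.15, SE 0.19, interval -0.29 to 0.58, adjusted p = 0.978). In Pf4, F13a1 and Folr2 the difference was smaller than the SD of either group. Ms4a7, at 42.3 ± 16.5 CPM in KO, against 39.8 ± 21.5 CPM in WT, had the second widest interval (0.10, SE 0.49, interval -1.09 to 1.28, adjusted p = 0.992). Cbr2 averaged 24.9 ± 9.7 CPM in KO, against 22.1 ± 5.6 CPM in WT (0.18, SE 0.31, interval -0.53 to 0.89, adjusted p = 0.986). Leaving out single libraries turned the sign of 7 of the 9 estimates, and none of them passed the test. Summed over the 9 genes, CPM by library total was 2706, 2183, 2079 and 2684 in KO CD45 libraries, against 2293, 3097 and 1892 in WT, a log2 ratio of means of -0.00865.

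**Figure D3:**
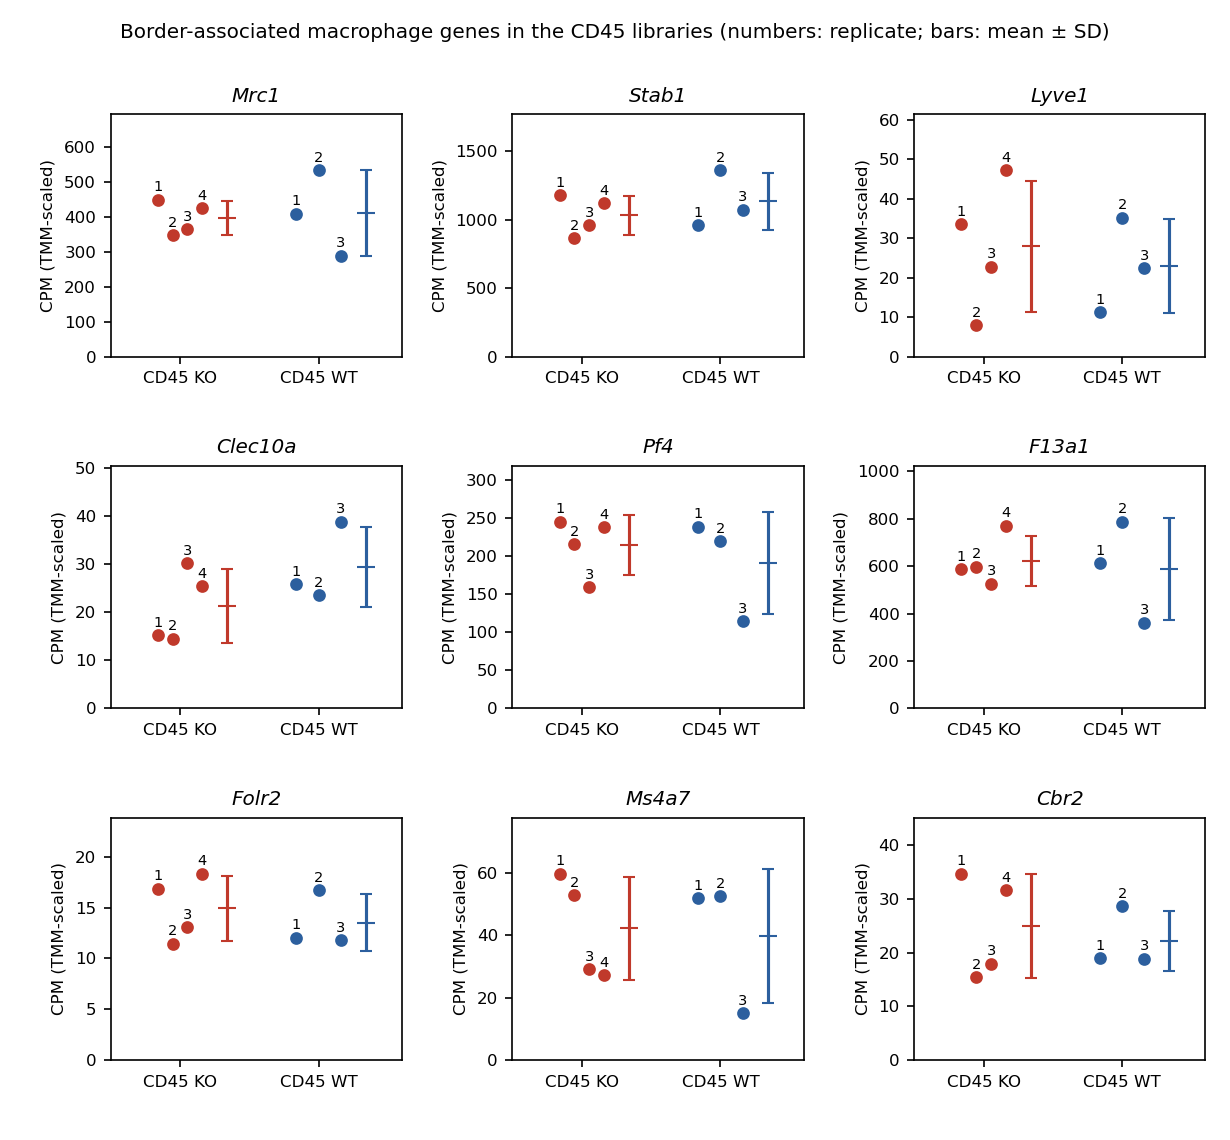
CPM scaled by TMM of each of the 9 genes in each CD45 library, 4 KO (red) and 3 WT (blue), with the replicate number beside each point and the mean ± SD as a bar. KO and WT points overlap in all 9 panels, with Lyve1 between 8.05 and 47.3 CPM in KO.

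The wider lists gave no calls between the genotypes in CD45 cells either. Of the 17 other border-associated macrophage genes tested, 0 passed, 14 had positive log2 fold changes and the median was 0.24, and the 1 with an unadjusted p under 0.05 was Cd36, a fatty acid and lipoprotein receptor, with 202 to 260 CPM across KO libraries and 171 to 198 CPM across WT libraries (log2 fold change 0.31, SE 0.11, adjusted p = 0.974). The MHC class II list had 0 of 7 called (median -0.062), the MS4A list 0 of 9 (median 0.22), the endocytic and scavenger receptors 0 of 14 (median 0.10) and the alternative activation genes 0 of 9 (median 0.27). Of the other cells, 0 of 12 monocyte genes (median 0.13), 0 of 12 microglia genes (median 0.15), 0 of 10 neutrophil genes (median -0.17) and 0 of 10 dendritic cell genes (median 0.10) were called. The largest list median was that of the neuron genes, of which 0 of 5 were called and all 5 were positive (median 1.26). Rbfox3, a neuronal splicing factor, was the 1 of these with an unadjusted p under 0.05 (log2 fold change 1.46, SE 0.52, unadjusted p = 0.0191, adjusted p = 0.974). The other 9 lists also gave 0 calls, with medians of -0.026 in oligodendrocyte genes to 0.31 in mast cell genes. The median was positive in 16 of all 19 lists, and the part of other cell types in the estimates of the 9 genes was not tested.

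In the flow-through, Mrc1 and Folr2 had KO and WT libraries that did not overlap, in opposite directions, and neither passed the test. Only 5 of the 9 passed the filter on low counts there, and 0 of these 5 were called, against 1.57% of 16546 genes. The 2 of 5 without overlap are read against 11.5% of all genes, and the 2 of 5 with an unadjusted p under 0.05 against 11.0%. Mrc1 had 13, 18 and 19 counts in KO libraries, against 5, 9, 7 and 10 counts in WT libraries (log2 fold change 1.10, SE 0.37, unadjusted p = 0.0101, adjusted p = 0.235). Cx3cr1, the fractalkine receptor of microglia, was likewise above every WT library in every KO library, at 1.21 to 1.80 CPM in KO, against 0.429 to 0.820 CPM in WT (log2 fold change 1.25, SE 0.31, adjusted p = 0.0723). Ptprc was not, at 0.659 to 0.972 CPM in KO, against 0.820 to 1.19 CPM in WT (-0.36, SE 0.30, adjusted p = 0.728). The part of residual myeloid cells in the Mrc1 counts was not tested. Folr2 had 142, 131 and 184 counts in KO libraries, against 179, 239, 168 and 196 counts in WT libraries, and scaled to depth every KO library lay below every WT library (log2 fold change -0.37, SE 0.15, unadjusted p = 0.0266, adjusted p = 0.354). Lyve1 (-0.51, SE 0.46), Cbr2 (-0.31, SE 0.31) and Stab1 (-0.029, SE 0.27) had adjusted p-values of 0.757, 0.780 and 0.981. The difference of the Mrc1 effect between CD45 cells and flow-through was -1.16 (SE 0.42, unadjusted p = 0.0148, adjusted p = 0.649), and 0 of the 9 interactions were called, against 0.0% of 18098 genes, with 1 of 9 at an unadjusted p under 0.05, against 7.21%.

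**Figure D4:**
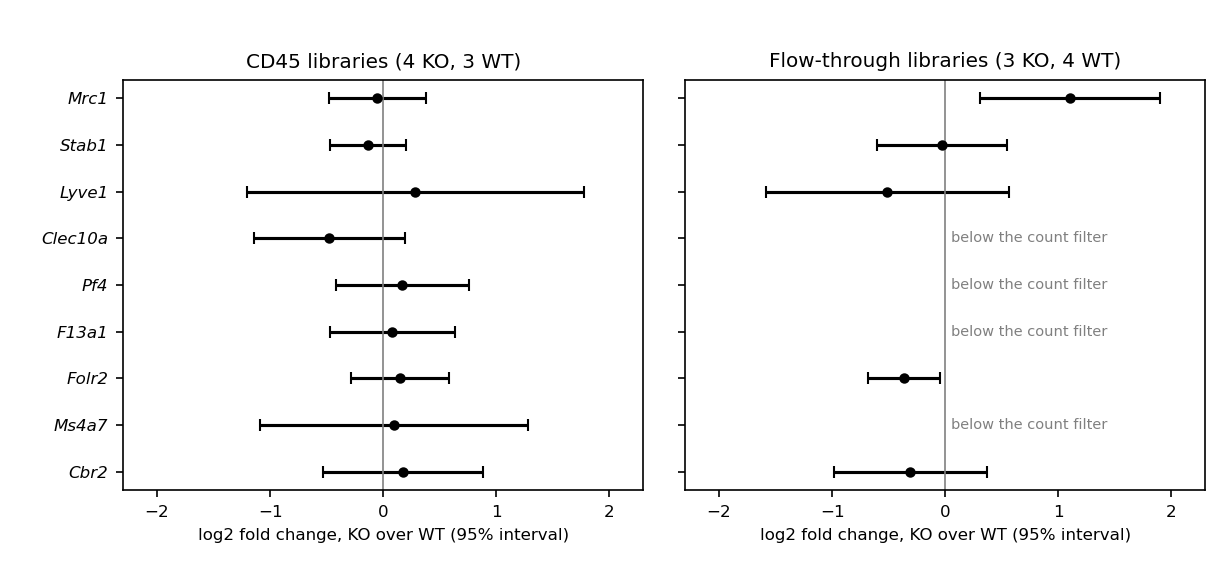
Log2 fold change, KO over WT, of each of the 9 genes with its 95% interval, in the CD45 libraries (left, 4 KO and 3 WT) and in the flow-through libraries (right, 3 KO and 4 WT). All 9 CD45 intervals include 0, and in the flow-through those of Mrc1 and Folr2 do not before adjustment for multiple tests.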

How the data were processed

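RNA was measured in 14 libraries. The count tables, 1 per fraction, hold whole reads per gene as the authors deposited them. The submitters' processing notes name Trim Galore, FastQC, STAR 2.7.9a and the build GRCm38. Per the labels' protocols, libraries came from a stranded mRNA kit, and no source used here names the counting tool or its strand setting. A companion signal made with DESeq2 size factors was not used.

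Symbols, positions and exon lengths came from GENCODE M21. Counts were tested with edgeR 4.0.16 (TMM scaling, filterByExpr, robust quasi-likelihood fit) over all genes of a comparison, with Benjamini-Hochberg adjustment and calls at an adjusted p under 0.05, after the code was tested on simulated data. Intervals are log2 fold change ± t × SE, and p-values reflect only the spread among the libraries, which may be technical. Chi-square per degree of freedom in the 18 within-group pairs was 9.42 to 49.8, and no library was treated as a duplicate. Alternatives were DESeq2 1.42.0, other scalings, no filter, a joint fit and leaving out each library. The genes named besides the 9 were those called in their marker list and its most abundant members, plus those said to be named after their values were seen and the low platelet and lymphatic markers Gp5, Gp6, Gp1ba, Gp1bb and Mmrn1, also named after their values were seen. CD45 and flow-through libraries may share animals, which the fits over both do not model. The 9 genes, the marker lists and the tests were chosen with earlier results of these data known.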

Additional observations from a re-analysis of the deposited data

Results flagged for a closer look

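Among 20 groups tested for 1 sample far from the rest, where chance alone gives about 1 in 20, Ms4a7 in the flow-through WT libraries was picked out because replicate 1 had 0.0477 CPM, a single count, and the other 3 had 0.

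The library labelled flow-through WT replicate 5, which stands in the CD45 count table and entered no comparison, carried the 9 genes at a summed 2548 CPM, where the flow-through libraries used here had 14.4 to 19.1 CPM in KO and 16.8 to 26.3 CPM in WT. Mrc1 stood at 487 CPM in it, Stab1 at 1132 CPM and Ptprc at 906 CPM. It was picked out because its level lies outside its labelled group.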

How the results depend on the processing

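No paired analysis was possible because the replicate numbers were given in accession order and the labels name no animal or batch. Counts of the 9 genes called stayed at 0 between KO and WT in either fraction and in the interaction, and at 9 between fractions, under every alternative run. Over all genes, calls between KO and WT in CD45 cells numbered 0, 5 with DESeq2, and 0 to 1 with single libraries left out (the 1 without KO replicate 1). In the flow-through they numbered 260, 416 with DESeq2, 629 without the filter, 30 in the joint fit, and 134 to 287 with single libraries left out, with 134 without KO replicate 1, 163 without KO replicate 2, 144 without WT replicate 2 and 159 without WT replicate 3. Interactions numbered 0, 45 with DESeq2, 15 without the filter, and 0 to 2 with single libraries left out. The cause of these differences was not tested.

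Estimates that changed sign did so only when a library was left out. KO over WT in CD45 cells then ranged from -0.25 to 0.18 for Mrc1, -0.25 to 0.020 for Stab1, -0.092 to 0.73 for Lyve1, -0.097 to 0.35 for Pf4, -0.18 to 0.35 for F13a1, -0.30 to 0.35 for Ms4a7 and -0.043 to 0.40 for Cbr2 in log2. Clec10a (-0.68 to -0.23) and Folr2 (0.035 to 0.33) kept their sign. The range for Stab1 in the flow-through was -0.18 to 0.12, and for the interaction -1.61 to 1.49 for Ms4a7, -0.27 to 0.033 for Stab1 and -0.26 to 0.60 for F13a1. The log2 ratio of the 9-gene sums, -0.00865, was -0.0056 without the 100 most abundant genes, -0.063 per Ptprc read, and -0.16 to 0.21 with single libraries left out, the last 2 added after the data were seen. Between fractions, scaling moved the median of all genes from -0.054 to -0.31 (upper quartile) or -0.58 (library totals), and the 9 genes kept their direction, with Folr2 at 1.17 and 0.89. Of the 8 genes most alike in pattern, 1 stayed with Spearman's rho and 2 with values centred on genotype. With 3 or 4 libraries a group, the SE of the CD45 estimates was 0.15 to 0.62.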

Other observations

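Ms4a4c, a neighbour of Ms4a7 in the MS4A cluster of chromosome 19, had 48.1, 34.3, 38.7 and 28.2 CPM in KO CD45 libraries, against 9.29, 41.5 and 20.0 CPM in WT CD45 libraries, so WT replicate 1, which had 51.9 CPM of Ms4a7, was the lowest for Ms4a4c. H2-Eb1, an MHC class II beta chain, was also lowest in that library, with 186, 95.7, 130 and 150 CPM in KO, against 39.6, 130 and 165 CPM in WT, whereas H2-Aa had 446, 399, 564 and 411 CPM in KO, against 577, 516 and 319 CPM in WT. Ms4a4c, H2-Eb1 and H2-Aa were named here after their values were seen. Pdpn, a membrane glycoprotein in the lymphatic list, lay higher in every KO than in every WT CD45 library, at 249 to 317 CPM in KO, against 150 to 229 CPM in WT (log2 fold change 0.54, SE 0.15, edgeR unadjusted p = 0.00469, adjusted p = 0.974). Of all 15660 genes tested, 5.34% had KO and WT libraries without overlap in either direction, and 4.43% had an edgeR unadjusted p under 0.05.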
